A study of Mus musculus with 24 samples.

Results

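Aortas of IL-17 knockout mice given vehicle were compared with aortas of wild-type mice given vehicle, 3 one-colour arrays against 3, out of 24 arrays in the series. Both groups were labelled C57BL/6, ate normal chow, had no added salt and had 3 days of vehicle, and neither received NaCl, BAPN or angiotensin II. The comparison asks which transcripts differed between the genotypes under vehicle, without NaCl, BAPN or angiotensin II. All 6 arrays labelled as controls were used, and the other 18 arrays, which cross the same genotypes with 1% NaCl in the drinking water and with infusion of BAPN, an inhibitor of lysyl oxidase, and angiotensin II, added to the estimate of spread and gave the same contrast in 3 other settings.

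The series calls its replicates biological. The labels give neither the IL-17 gene or allele that was deleted nor the age, sex or breeding of the animals, nor the hour at which tissue was taken. The text on extraction speaks of cells, whereas aorta is the label of every sample. All 4 smooth muscle markers (Myh11, Acta2, Tagln and Cnn1), all 4 endothelial markers and all 4 adventitial fibroblast markers were well above background on all 6 arrays. Of 2 tested B cell markers 0 were, and of 4 T cell and thymocyte markers 2 were. In bulk tissue, fewer cells of a type and less RNA of that type per cell cannot be told apart.

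Interleukin 17A is a cytokine made mainly by Th17 cells and by innate-like T cells. It binds a receptor of IL17RA and IL17RC on fibroblasts, smooth muscle, epithelium and other tissue cells. Through the adaptor Act1 it raises chemokines, matrix proteases and acute-phase proteins, and it lengthens the life of other inflammatory transcripts. In arteries it has been studied in hypertension, aneurysm and dissection.

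The deleted cytokine itself could not be followed on these arrays. The Il17a probe (mm9 chromosome 1, 20724404 to 20724463, plus strand) read −6.40, −5.40 and −6.92 on the knockout arrays, against −6.76, −6.83 and −6.30 on the wild-type arrays. These are normalised log2 signals, which are the log2 of the processed signal minus the 75th percentile of the array. The Il17f probe, for the closest relative of Il17a, read −6.02, −6.60 and −6.87 on the knockout arrays, against −5.67, −5.64 and −6.29 on the wild-type arrays. Neither probe rose well above background on any of the 6 arrays (0 of 6), so no fold is given, and the values check nothing about the genotype labels.

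Genotype moved with the slide. The 3 knockout arrays lay on 1 slide and the 3 wild-type arrays on another, each slide was scanned in a session of its own, and no slide of the series held both genotypes, so slide and genotype cannot be told apart. Several array measures differed with the groups. Spike-in slopes were 0.961 to 0.975 on knockout arrays and 0.884 to 0.896 on wild-type arrays. The share of probes well above background was 50.9% to 53.8% on knockout arrays and 55.6% to 59.4% on wild-type arrays, and no spot was saturated. With 3 arrays a group, precision is limited throughout.

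Of 23503 genes tested, 9024 (38.4%) passed limma's test at an adjusted p under 0.05, with 4024 higher in the knockout (17.1%) and 5000 lower (21.3%). These shares are the background for every count of genes given here. The median log2 difference over all genes was 0.03, and it lay between −0.05 and 0.10 under other scalings and filters. The direction went with the level of the gene. With genes split into 5 equal groups by level, the median difference was −0.69 in the dimmest group, with 3.85% higher and 39.99% lower. In the next to brightest group it was 0.23, with 30.7% higher and 9.55% lower, and in the brightest it was 0.17, with 22.7% higher and 10.3% lower. Among the genes called lower, 1279 were not well above background on any knockout array, and among those called higher, 86 were not well above background on any wild-type array. The authors' processed values, read here as quantile-normalised, called 8466 genes, 4296 of them higher (50.7% of the calls, against 44.6% with the main scaling). When slide entered as a random block, 2045 genes passed, 480 higher and 1565 lower, and all 2045 were among the 9024. That fit used 1 correlation within slides for all genes (0.48). Because no slide held both genotypes, it cannot separate slide from genotype, and a gene that passed it may still differ by slide.

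**Figure D1:**
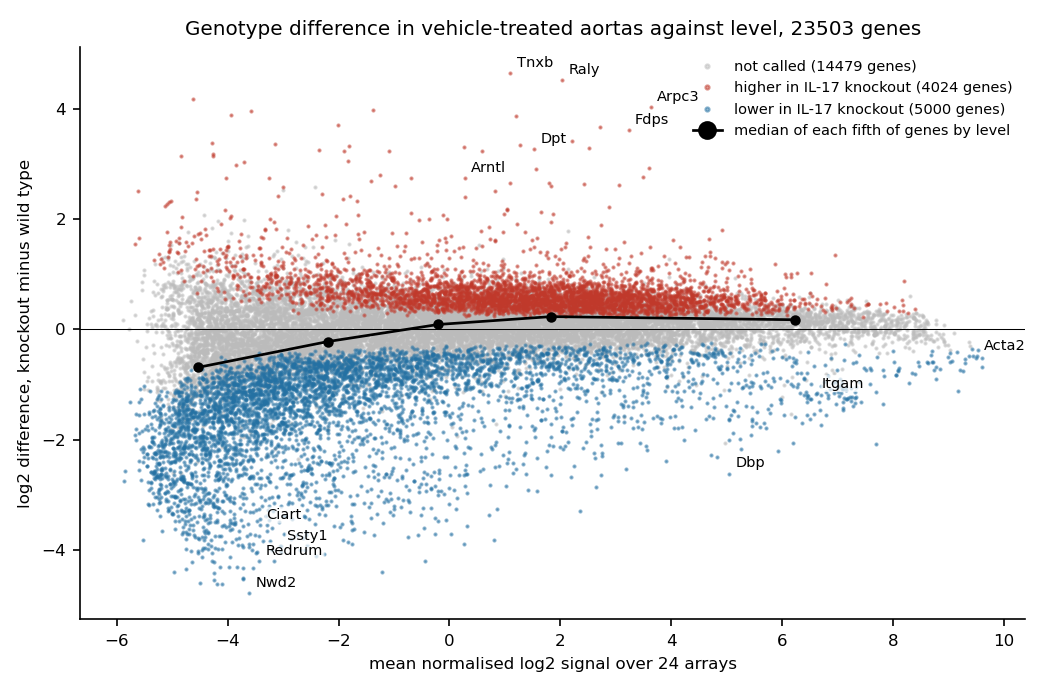
Log2 difference between knockout and wild-type vehicle arrays (vertical axis) against the mean normalised log2 signal over 24 arrays (horizontal axis), 1 point a gene. Red genes were higher and blue genes lower in the knockout at an adjusted p under 0.05, and the black line joins the medians of 5 equal groups by level, which run between −0.69 in the dimmest and 0.23 in the next to brightest.

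The largest increases in the knockout were in genes of unrelated functions, each read by 1 kept probe except where stated. Tnxb, which encodes the matrix glycoprotein tenascin XB of collagen-rich tissue, read 4.52, 4.05 and 4.17 on the knockout arrays, against −0.43, −0.67 and −0.1 on the wild-type arrays (probe at mm9 chromosome 17, 34856502 to 34856561). It was the gene with the largest increase (log2 difference 4.65, SE 0.37, adjusted p = 4.76e-08). Raly, an RNA-binding protein of the heterogeneous nuclear ribonucleoprotein family, read 4.53, 3.89 and 4.05 on the knockout arrays, against −0.38, −0.45 and −0.27 on the wild-type arrays (mm9 chromosome 2, 154692867 to 154692926). It also rose (log2 difference 4.53, SE 0.21, adjusted p = 1.16e-10). For both genes all 3 knockout arrays lay more than 4 log2 units above the wild-type mean.

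Arpc3, a subunit of the Arp2/3 complex that branches actin filaments, read 4.49, 4.62 and 4.64 on the knockout arrays, against 0.02, 0.93 and 0.72 on the wild-type arrays (log2 difference 4.03, SE 0.48, adjusted p = 3.88e-06). Its 2 other kept probes were called higher as well, and the brighter of them differed by 3.78. Hebp1, a haem-binding protein, read 3.91, 3.18 and 3.29 on the knockout arrays, against −0.38, −0.37 and −0.5 on the wild-type arrays (log2 difference 3.88, SE 0.17, adjusted p = 1.16e-10). Spr, the sepiapterin reductase that makes tetrahydrobiopterin, read 2.82, 2.86 and 2.98 on the knockout arrays, against −0.59, −0.5 and −0.27 on the wild-type arrays (log2 difference 3.34, SE 0.16, adjusted p = 2.16e-10). The groups did not overlap for Arpc3, Hebp1 or Spr. Clec2d, a lectin-like ligand of an inhibitory natural killer cell receptor, read −1.18, −0.13 and −0.06 on the knockout arrays, against −4.4, −4.03 and −4.03 on the wild-type arrays (log2 difference 3.7, SE 0.3, adjusted p = 4.76e-08), and was well above background on all 3 knockout arrays and on 2 of 3 wild-type arrays.

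For 5 of the 12 largest increases no wild-type array read well above background, so only a lower bound of the fold can be given. The bound divides the brighter group's mean by a floor for the dimmer group. On each array that floor is the dimmest signal still counted as well above background, or the signal of the gene's probe where this is greater. H2bu2, a histone H2B gene, was at least 6.01-fold higher in the knockout (adjusted p = 3.21e-06). Adora2a, the adenosine receptor that relaxes vessels, read −0.82, −2.83 and −2.04 on the knockout arrays, against −5.26, −5.91 and −6.17 on the wild-type arrays. It was at least 5.38-fold higher (adjusted p = 5.93e-06). Dlg2, a synaptic scaffold protein, was at least 4.44-fold higher (adjusted p = 5.63e-10), the cation channel gene Trpc2 at least 3.23-fold (adjusted p = 5.71e-06), and the mitotic kinesin Kifc1 at least 2.69-fold (adjusted p = 0.000359). All 12 of these genes were called higher in each of the 3 other treatments too, as were 1633 of all 4024 genes called higher. The contrasts of the treatments share slides. With slide as a random block 11 of 12 passed. Kifc1 did not (adjusted p = 0.118), nor with normexp (log2 0.63, adjusted p = 0.117).

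Most of the largest decreases were in dim genes with no established symbol. Of the 12 largest, 8 have only a clone or gene-model name and are counted here without names, and 11 were not well above background on any knockout array. Nwd2, a protein with NACHT and WD repeat domains, read −5.49, −5.57 and −6.76 on the knockout arrays, against −1.23, −1.22 and −1.01 on the wild-type arrays (mm9 chromosome 5, 64201445 to 64201504). It was at least 9.25-fold lower in the knockout (adjusted p = 3.09e-07). Redrum, a long noncoding RNA described in mouse red cell development, read −6.18, −4.86 and −4.94 on the knockout arrays, against −1.19, −1.18 and −0.99 on the wild-type arrays, and was at least 9.46-fold lower (adjusted p = 8.17e-08). Pramel26, of a family expressed in germ cells, was at least 3.76-fold lower (adjusted p = 4.74e-06), and Chil6, a chitinase-like protein, at least 4.23-fold (adjusted p = 0.000399). For these 4 genes each wild-type array read above each knockout array. Chil6 did not pass with slide as a random block (adjusted p = 0.123), and the other 3 did.

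Many members of families best known from the nose and the skin were lower in the knockout, and these families were chosen for description after their values were seen. Of 139 measured olfactory receptor genes, 2 were higher and 76 lower in the knockout, with a median of −1.1. Of 51 vomeronasal receptor genes, 0 were higher and 39 lower (median −2.0). Of 46 keratin and keratin-associated genes, 1 was higher and 21 lower (median −0.75). Probes for 3203 long intergenic RNA regions had 5.28% higher and 42.6% lower, while 14945 protein-coding genes had 23.2% higher and 13.2% lower. The median level of the olfactory receptors was −4.17 and that of the protein-coding genes 0.71 on the same log2 scale, so the receptors lay in the dimmest of the 5 level groups, where 39.99% of all genes were lower. The part of signal level in their decrease was not tested.

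Most measured genes of the Y chromosome were lower in the knockout. Of 110 measured Y-linked genes, 0 were higher and 99 lower, with a median of −2.83. Their median level was −3.39, in the dimmest of the 5 level groups. In that group 39.99% of all genes were lower, and the median difference was −0.69. The part of signal level in the decrease of the Y-linked genes was not tested. Ssty1, a spermatid gene of the mouse Y chromosome, read −5.22, −4.99 and −4.13 on the knockout arrays, against −1.0, −0.81 and −0.7 on the wild-type arrays (log2 difference −3.94, SE 0.45, adjusted p = 2.66e-06). Its 2 other kept probes were called lower too, though probes of multicopy genes may share sequence. Of the 3 single-copy Y genes measured, Ddx3y, Uty and Eif2s3y, 0 were called. Ddx3y, an RNA helicase, read 2.73, 2.67 and 2.58 on the knockout arrays, against 2.55, 2.67 and 2.29 on the wild-type arrays (log2 difference 0.16, SE 0.15, adjusted p = 0.422). The groups overlapped for Ddx3y, whereas for Ssty1 every knockout array lay below every wild-type array.

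**Figure D2:**
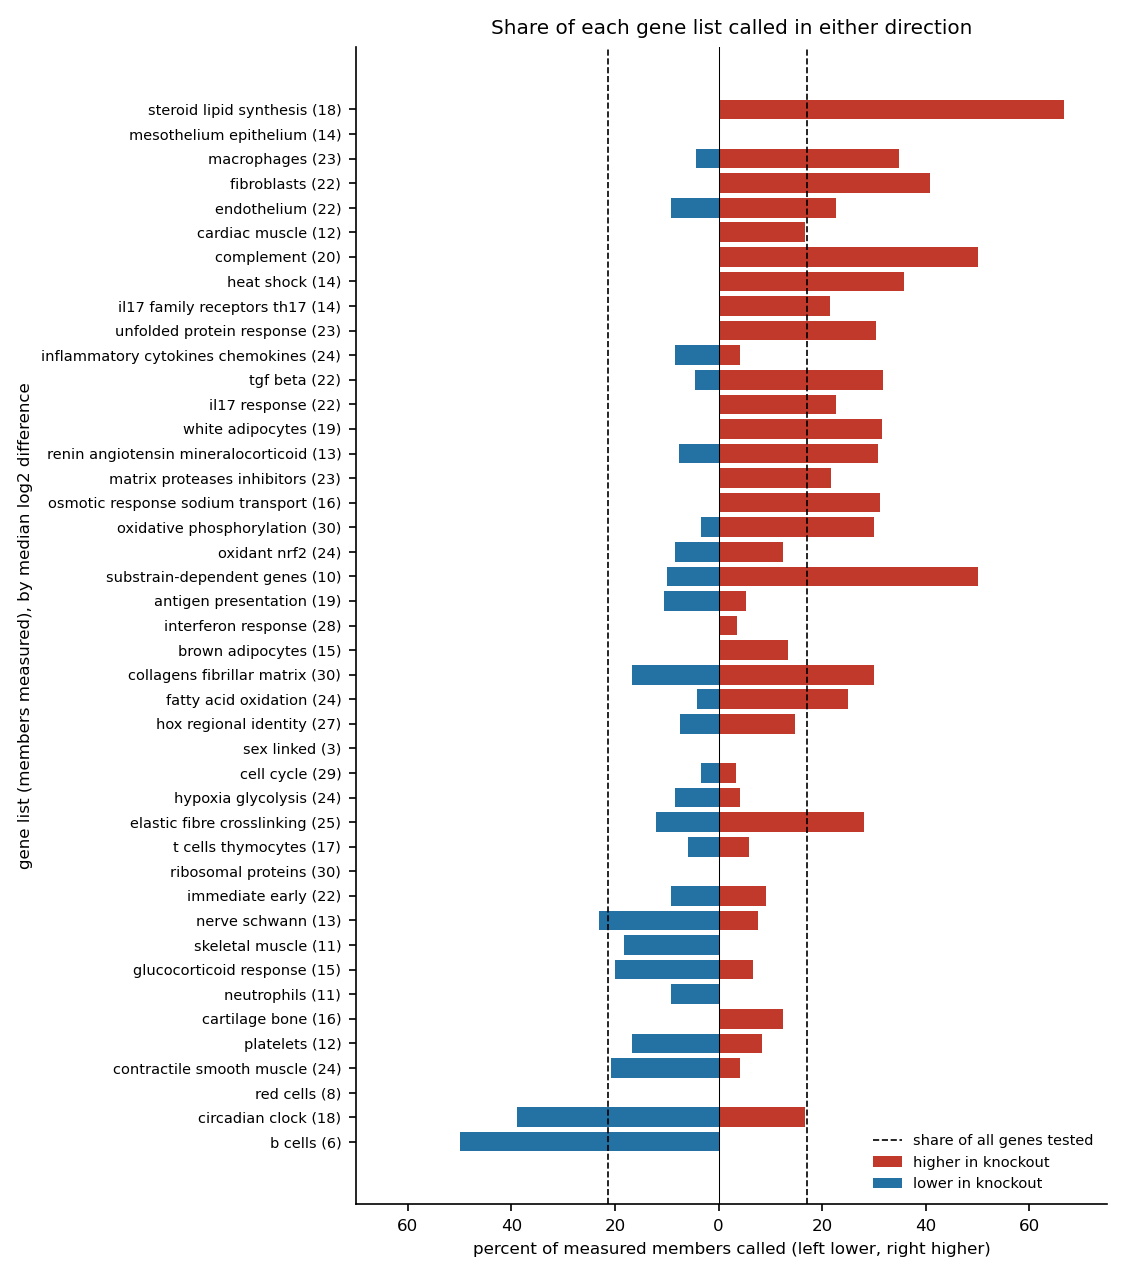
Percent of the measured members of each of 43 gene lists called higher (right, red) or lower (left, blue) in the knockout, ordered by the list's median log2 difference, with the number measured in brackets. Dashed lines mark the shares over all 23503 genes, 17.1% higher and 21.3% lower; sterol synthesis reached 12 of 18 higher, and clock genes had 3 higher and 7 lower of 18.

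Transcripts of the molecular clock were arranged in opposite directions in the knockout. In this clock the activators BMAL1 (Arntl) and CLOCK drive E-box genes, among them the repressors Per and Cry, the nuclear receptors Nr1d1 and Nr1d2, and the output factors Dbp, Tef and Hlf. The nuclear receptors in turn repress Arntl and Nfil3, and the ROR receptors oppose them at the same element. Of 18 clock genes measured, 3 were higher and 7 lower, a larger share of lower calls (38.9%) than over all genes (21.3%), and 15 of 18 had groups that did not overlap, where 60.6% of all genes did not overlap. Their median difference was −0.87, against 0.03 over all genes, and it lay between −0.89 and −0.67 under the other scalings and filters, but was −0.21 with slide as a random block.

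The promoters of the clock genes whose calls lay on either side are shown because they carry the elements named above. They cover 250 bases before and 50 after the start of transcription in the RefSeq table of GRCm38.p6, and a Tef start is the second of those the table gives. The capitals mark CACGTG, the E-box, in the first 4, and AGGTCA, the core of the ROR element, in those of Arntl and Nfil3, read as TGACCT where it lies on the other strand.
Per1 promoter, chr11:69098699-69098998, plus strand: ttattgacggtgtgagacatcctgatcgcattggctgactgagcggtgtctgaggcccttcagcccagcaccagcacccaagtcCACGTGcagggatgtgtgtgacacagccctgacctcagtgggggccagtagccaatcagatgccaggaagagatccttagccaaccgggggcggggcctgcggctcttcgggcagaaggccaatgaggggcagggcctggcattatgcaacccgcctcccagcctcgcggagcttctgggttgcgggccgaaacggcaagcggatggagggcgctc
Bhlhe41 promoter, chr6:145865371-145865670, minus strand: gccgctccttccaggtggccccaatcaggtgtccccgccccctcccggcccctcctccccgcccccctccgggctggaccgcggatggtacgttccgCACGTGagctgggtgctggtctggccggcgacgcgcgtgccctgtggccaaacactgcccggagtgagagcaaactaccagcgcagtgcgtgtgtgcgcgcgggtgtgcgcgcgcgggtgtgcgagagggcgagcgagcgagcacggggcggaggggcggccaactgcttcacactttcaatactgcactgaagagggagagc
Ciart promoter, chr3:95882179-95882478, minus strand: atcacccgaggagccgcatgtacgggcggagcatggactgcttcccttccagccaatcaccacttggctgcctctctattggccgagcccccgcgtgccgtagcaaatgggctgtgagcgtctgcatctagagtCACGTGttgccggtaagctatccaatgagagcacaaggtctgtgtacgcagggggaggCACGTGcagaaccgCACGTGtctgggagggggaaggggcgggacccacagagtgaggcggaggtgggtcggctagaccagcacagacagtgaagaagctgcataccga
Tef promoter, chr15:81811164-81811463, plus strand: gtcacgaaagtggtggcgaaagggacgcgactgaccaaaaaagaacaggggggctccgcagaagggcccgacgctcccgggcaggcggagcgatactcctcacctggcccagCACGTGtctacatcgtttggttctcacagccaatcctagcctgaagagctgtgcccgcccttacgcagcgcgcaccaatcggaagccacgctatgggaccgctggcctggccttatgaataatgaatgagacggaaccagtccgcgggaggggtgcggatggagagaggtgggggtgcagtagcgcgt
Arntl promoter, chr7:113207261-113207560, plus strand: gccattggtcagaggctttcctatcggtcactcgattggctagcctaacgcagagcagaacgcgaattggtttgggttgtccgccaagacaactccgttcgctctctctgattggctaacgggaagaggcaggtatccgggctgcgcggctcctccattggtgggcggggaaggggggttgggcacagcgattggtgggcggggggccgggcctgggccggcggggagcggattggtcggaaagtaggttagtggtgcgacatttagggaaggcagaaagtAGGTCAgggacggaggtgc
Nfil3 promoter, chr13:52980990-52981289, minus strand: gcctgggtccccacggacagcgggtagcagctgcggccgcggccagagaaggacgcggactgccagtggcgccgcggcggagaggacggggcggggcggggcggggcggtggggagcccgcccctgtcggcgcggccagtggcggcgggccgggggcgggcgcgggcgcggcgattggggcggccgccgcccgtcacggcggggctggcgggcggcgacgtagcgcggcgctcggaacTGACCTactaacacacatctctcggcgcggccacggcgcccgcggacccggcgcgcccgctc
Of the 18 measured clock genes 14 had a promoter in the table. CACGTG lay in 4 of the 14 on either strand, Bhlhe41, Ciart, Per1 and Tef, and all 4 were called lower in the knockout, while 8.09% of the 27025 genes in the table hold it. AGGTCA lay in 5 of 14, those of Arntl, Clock and Nfil3, which were called higher, of Per1, called lower, and of Nr1d2, which was not called, while 18.1% of all genes hold it. TTATGTAA, the D-box, lay in 1 of 14, that of Per3, and in 1.11% of all genes. A match describes letters in a window and shows no binding.

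Arntl, the activator without which the clock stops, read 1.74, 1.29 and 2.25 on the knockout arrays, against −0.38, −1.26 and −1.32 on the wild-type arrays (log2 difference 2.75, SE 0.58, adjusted p = 0.00127). Clock, its partner, read 1.4, 1.31 and 1.52 on the knockout arrays, against 0.75, 0.59 and 0.4 on the wild-type arrays (log2 difference 0.83, SE 0.19, adjusted p = 0.00236). Nfil3, a repressor of D-box genes, read 2.95, 2.99 and 3.12 on the knockout arrays, against 0.29, 0.97 and 0.01 on the wild-type arrays (log2 difference 2.6, SE 0.6, adjusted p = 0.00242). All 3 rose, and the knockout arrays lay above the wild-type arrays in each. Npas2, which can stand in for Clock, differed by 0.85 and did not pass (adjusted p = 0.0951).

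Among the E-box targets, Dbp, an activator of D-box genes, read 4.65, 4.82 and 3.23 on the knockout arrays, against 6.7, 7.02 and 6.84 on the wild-type arrays (log2 difference −2.62, SE 0.74, adjusted p = 0.00931). A second Dbp probe differed by −2.47. Dbp did not pass without knockout array 3 (log2 −2.12, adjusted p = 0.0531). Its knockout array 3 was the lowest of the 6 arrays. Ciart, a repressor that binds BMAL1, read −4.91, −4.27 and −6.73 on the knockout arrays, against −2.4, −1.2 and −1.64 on the wild-type arrays, was not well above background on any knockout array, and was at least 6.02-fold lower (adjusted p = 0.00603). Nr1d1, the repressor REV-ERB alpha, read 1.48, 1.85 and 1.01 on the knockout arrays, against 3.14, 2.99 and 3.17 on the wild-type arrays (log2 difference −1.65, SE 0.38, adjusted p = 0.0024). Per1, a period protein, read 2.36, 2.85 and 2.19 on the knockout arrays, against 3.93, 4.0 and 3.68 on the wild-type arrays (log2 difference −1.4, SE 0.34, adjusted p = 0.00342). In these 4 genes every knockout array lay below every wild-type array, and Dbp and Ciart were chosen for naming after their values were seen.

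Bhlhe40 and Bhlhe41, repressors that compete for E-boxes, fell by 0.81 (SE 0.19, adjusted p = 0.00323) and by 1.54 (SE 0.42, adjusted p = 0.00746), and a second Bhlhe41 probe differed by −2.61. Tef, another D-box activator, fell by 1.15 (SE 0.41, adjusted p = 0.0326), but passed in 0 of the 6 fits that left out 1 array (adjusted p between 0.0556 and 0.103). Hlf, the third of that family, read 0.78, 1.11 and 0.92 on the knockout arrays, against 1.84, 2.0 and 2.33 on the wild-type arrays, and did not pass (adjusted p = 0.184). Per3 and Nr1d2 differed by −1.37 (adjusted p = 0.103) and −0.52 (adjusted p = 0.218) and did not pass either. In the fit of the 6 control arrays alone Hlf, Per3 and Npas2 passed (adjusted p = 0.00375, 0.00579 and 0.0412). The hour of sampling is not given for either genotype, so its part in these differences was not tested. When slide was a random block 0 of the 18 clock genes passed, and adjusted p was 0.125 for Arntl and 0.211 for Dbp.

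**Figure D3:**
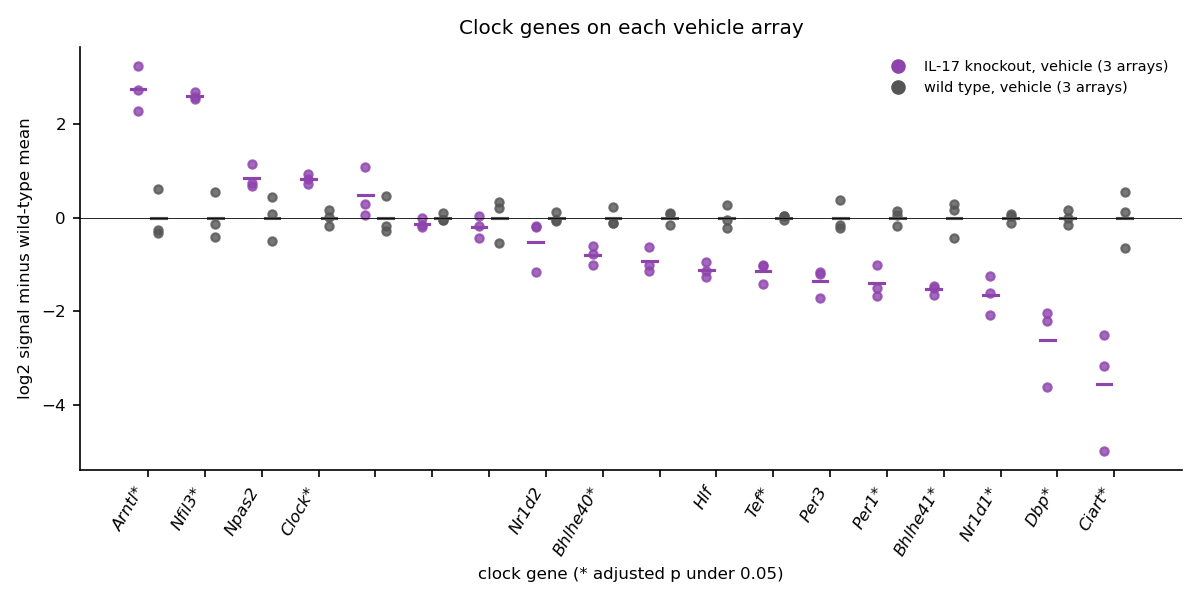
Normalised log2 signal of 18 clock genes on each vehicle array, minus the gene's wild-type mean, with the 3 knockout arrays (purple) left of the 3 wild-type arrays (grey) and short bars at the means; a star marks an adjusted p under 0.05, and genes not named in the text have no label. Arntl and Nfil3 lie above the wild type by 2.75 and 2.60, and Dbp and Ciart lie lowest.

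Genes of cholesterol synthesis were higher in the knockout. Of 18 measured genes of sterol and lipid synthesis, 12 were higher and 0 lower, against 17.1% and 21.3% over all genes, with a median of 0.84. The list's median level falls in the middle of the 5 level groups, where 19.2% of all genes were higher. The median difference lay between 0.74 and 0.98 under other scalings and filters, and between 8 and 11 genes passed when 1 array was left out, fewest without wild-type array 3. Fdps, the farnesyl diphosphate synthase of the mevalonate pathway, read 3.97, 4.05 and 4.04 on the knockout arrays, against 0.57, 0.31 and 0.33 on the wild-type arrays (log2 difference 3.62, SE 0.45, adjusted p = 6.89e-06; mm9 chromosome 3, 88897549 to 88897608). Cyp51, which removes a methyl group of lanosterol, read 0.00, −0.1 and −0.47 on the knockout arrays, against −2.02, −2.07 and −2.45 on the wild-type arrays (log2 difference 1.99, SE 0.41, adjusted p = 0.000975). Idi1, the isopentenyl diphosphate isomerase, read 3.0, 2.71 and 2.95 on the knockout arrays, against 1.45, 1.26 and 0.91 on the wild-type arrays (log2 difference 1.68, SE 0.36, adjusted p = 0.00148). None of these groups overlapped.

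Hmgcs1, an early enzyme of the pathway, rose by 0.98 (SE 0.27, adjusted p = 0.00887). Srebf2, the transcription factor of the pathway, read −1.25, −0.8 and −0.84 on the knockout arrays, against −2.27, −2.66 and −2.87 on the wild-type arrays (log2 difference 1.63, SE 0.38, adjusted p = 0.0025), but its second kept probe differed by −0.03. When slide was a random block 1 of the 18, Fdps, passed (adjusted p = 0.00683). Of the 12 higher genes 2 were also called higher in all 3 other treatments, as were 1633 of all 4024 genes called higher. In mice given NaCl with the infusion the list's median genotype difference was −0.05, against 0.84 in the vehicle groups, 0.63 with NaCl alone and 1.11 with the infusion alone. CACCCCAC, the core of the sterol element, lay on either strand in 1 of the 11 promoters the table held for this list, that of Hmgcs1, and in 3.3% of all genes.

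The complement genes that passed were all higher in the knockout. Of 20 measured, 10 were higher and 0 lower in the knockout, with a median of 0.58. Fibroblast markers, described next, moved the same way with a median of 0.70, and their part in the complement counts was not tested. The higher genes included members of the classical and alternative pathways and inhibitors. C3, the protein on which the pathways meet, read 6.58, 6.49 and 6.94 on the knockout arrays, against 4.96, 5.67 and 5.85 on the wild-type arrays (log2 difference 1.18, SE 0.22, adjusted p = 0.0004), and a second probe differed by 1.01. Cfb, factor B of the alternative pathway, read 3.78, 3.66 and 3.68 on the knockout arrays, against 2.32, 2.78 and 2.81 on the wild-type arrays (log2 difference 1.07, SE 0.15, adjusted p = 2.75e-05). C4b, of the classical pathway, rose by 1.1 (SE 0.22, adjusted p = 0.000815), and C2, its partner, by 1.03 (SE 0.24, adjusted p = 0.00214).

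Of the complement inhibitors, Cd59a and Serping1 were among the higher genes. Cd59a, which blocks the membrane attack complex, read 4.14, 4.16 and 4.06 on the knockout arrays, against 3.18, 3.34 and 3.02 on the wild-type arrays (log2 difference 0.94, SE 0.12, adjusted p = 6.14e-06). Serping1, the C1 inhibitor, rose by 0.81 (SE 0.19, adjusted p = 0.00254), and its second probe was called higher too. Of the 10 higher genes 7 were also higher in all 3 other treatments, and 4 of the 20 passed with slide as a random block. The median lay between 0.46 and 0.62 under other scalings and filters.

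Markers of adventitial fibroblasts leaned the same way. All 22 measured had a positive difference, and 9 were higher (40.9%) and 0 lower in the knockout, with a median of 0.70. They and the complement genes are bright on average, and 22.7% of all genes in that brightest level group were higher. Dpt, the matrix protein dermatopontin, read 2.0, 3.5 and 3.67 on the knockout arrays, against −0.45, −0.03 and −0.16 on the wild-type arrays (log2 difference 3.27, SE 0.3, adjusted p = 2.2e-07). Serpinf1, which encodes pigment epithelium-derived factor, read 7.1, 7.04 and 7.09 on the knockout arrays, against 5.77, 6.43 and 5.98 on the wild-type arrays (log2 difference 1.01, SE 0.2, adjusted p = 0.000551), and its second probe differed by 1.07. Col14a1, a collagen that decorates fibrils, rose by 0.86 (SE 0.15, adjusted p = 0.000285), although its second probe differed by 0.01. Pdgfra, the receptor that marks these cells, rose by 0.74 (SE 0.19, adjusted p = 0.00454), and Ebf2, a transcription factor of mesenchymal precursors, by 0.93 (SE 0.23, adjusted p = 0.00384).

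The knockout and wild-type groups did not overlap for 16 of the 22 fibroblast markers, where 60.6% of all genes did not overlap. On the array level, the median of the list, taken relative to the gene means, was 0.36, 0.23 and 0.40 on the knockout arrays, against −0.59, −0.17 and −0.30 on the wild-type arrays. With slide as a random block 3 of 22 passed, and between 6 and 9 passed when 1 array was left out, fewest without wild-type array 1. The list's genotype median was 0.64 with NaCl, 0.71 with the infusion and 0.51 with both.

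**Figure D4:**
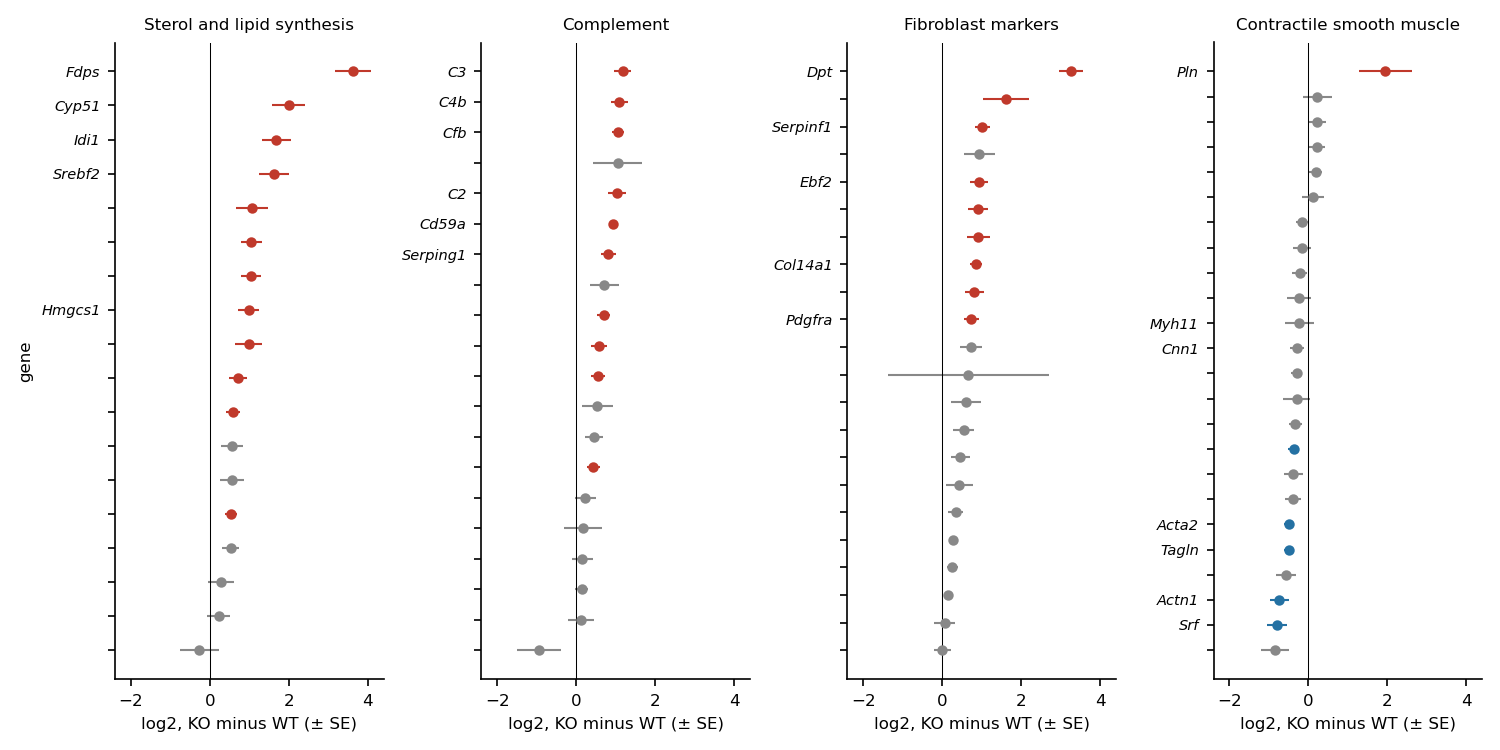
Log2 difference between knockout and wild type (horizontal axis, ± SE of the fit) for every measured member of 4 gene lists, in the vehicle groups; members not named in the text have no label. Red members were higher and blue members lower at an adjusted p under 0.05; 12 of 18 sterol, 10 of 20 complement and 9 of 22 fibroblast genes were higher, and 5 of 24 contractile genes were lower.

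Contractile smooth muscle genes had a slightly negative median, whose sign turned with slide as a random block. Of 24 measured, 1 was higher and 5 were lower, with a median of −0.29. The share of lower genes (20.8%) was near that over all genes (21.3%), but above that of the list's level group. In that group 22.7% of all genes were higher and 10.3% lower. Acta2, smooth muscle actin, read 9.61, 9.19 and 9.21 on the knockout arrays, against 9.75, 9.63 and 10.08 on the wild-type arrays (log2 difference −0.48, SE 0.13, adjusted p = 0.00722). Tagln, an actin-binding protein of contractile muscle, read 9.46, 9.16 and 9.15 on the knockout arrays, against 9.66, 9.57 and 9.99 on the wild-type arrays (log2 difference −0.49, SE 0.13, adjusted p = 0.00622). On the authors' quantile-normalised values both differed by −0.05, so their decrease moves with the scaling. Acta2 did not pass without wild-type array 3 either (log2 −0.35, adjusted p = 0.0548).

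Srf, the transcription factor of contractile genes, fell by 0.80 (SE 0.26, adjusted p = 0.0196), and Actn1, an actin crosslinker, by 0.73 (SE 0.24, adjusted p = 0.0211). Myh11, the smooth muscle myosin heavy chain, read 6.84, 6.78 and 6.86 on the knockout arrays, against 7.08, 6.89 and 7.18 on the wild-type arrays, and did not pass (adjusted p = 0.657). Pln, which restrains the calcium pump of the sarcoplasmic reticulum, was the one higher gene (log2 difference 1.95, SE 0.68, adjusted p = 0.0289), but did not pass without knockout array 1, knockout array 3 or wild-type array 3 (log2 1.2, adjusted p = 0.189 without the last). Srf lost its call in 3 and Actn1 in 4 of the 6 fits that left out 1 array. Between 2 and 6 genes of the list were lower when 1 array was left out, fewest without knockout array 3, and a random slide block left 0 of 24 with a call and a median of 0.07.

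Genes of the matrix changed in both directions. Of 30 collagen and fibrillar matrix genes, 9 were higher and 5 lower (median 0.22). In the level group of this list 22.7% of all genes were higher and 10.3% lower. When slide was a random block, 3 of the 30 were higher and none was lower. The higher ones included minor and fibril-associated components. Col5a3, a chain of fibril-nucleating collagen V, read 0.34, 0.87 and 0.79 on the knockout arrays, against −1.14, −0.89 and −0.75 on the wild-type arrays (log2 difference 1.59, SE 0.29, adjusted p = 0.000316). Fmod, the proteoglycan fibromodulin, rose by 1.57 (SE 0.43, adjusted p = 0.00835), and Col8a2, a short-chain collagen, by 1.29 (SE 0.29, adjusted p = 0.00177). The 5 lower genes were Col4a2, Col15a1 and 3 others. Col4a2, a basement membrane collagen, read 3.85, 3.88 and 3.9 on the knockout arrays, against 4.98, 4.54 and 4.95 on the wild-type arrays (log2 difference −0.94, SE 0.17, adjusted p = 0.000281). Col15a1, also of basement membrane zones, fell by 1.31 (SE 0.41, adjusted p = 0.0171; adjusted p = 0.114 without wild-type array 3). The main fibrillar chains Col1a1 and Col3a1 differed by 0.13 (adjusted p = 0.371) and 0.17 (adjusted p = 0.242).

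In the list of elastic fibre and crosslinking genes, 7 of 25 were higher and 3 lower (median 0.10; between −0.04 and 0.13 under other scalings and filters). A random slide block left 1 higher and 0 lower. Eln, which encodes elastin, read 4.19, 4.75 and 4.98 on the knockout arrays, against 5.87, 5.13 and 5.28 on the wild-type arrays (log2 difference −0.79, SE 0.23, adjusted p = 0.0114), and did not pass without knockout array 1 (log2 −0.56, adjusted p = 0.076) or without wild-type array 1 (log2 −0.57, adjusted p = 0.0763). Mfap4, a microfibril-associated protein, read 7.28, 7.58 and 7.45 on the knockout arrays, against 5.79, 6.01 and 6.49 on the wild-type arrays (log2 difference 1.34, SE 0.22, adjusted p = 0.000154). Loxl2, a lysyl oxidase that crosslinks collagen, rose by 0.98 (SE 0.25, adjusted p = 0.00492), but its second brightest probe differed by −0.13. Emilin2, a glycoprotein of elastic tissue, rose by 0.97 (SE 0.22, adjusted p = 0.002). Among 23 genes for matrix proteases and their inhibitors there were 5 higher (21.7%) and 0 lower. In their level group 30.7% of all genes were higher. Plau, the urokinase plasminogen activator, rose by 1.7 (adjusted p = 0.00279), but did not pass with normexp (log2 0.34, adjusted p = 0.22).

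Of 22 genes of TGF-beta signalling, 7 were higher and 1 lower in the knockout (median 0.39), against 1 and 1 when slide was a random block. Bmp4, a bone morphogenetic protein, read 5.77, 5.65 and 5.74 on the knockout arrays, against 4.58, 4.96 and 4.37 on the wild-type arrays (log2 difference 1.09, SE 0.18, adjusted p = 0.000145). Tgfbi, a matrix protein that TGF-beta induces, rose by 1.00 (SE 0.24, adjusted p = 0.00298), and Fst, which binds activins, by 1.28 (SE 0.36, adjusted p = 0.0101). The ligand Tgfb1 was the one lower gene and read −0.55, −0.66 and −0.61 on the knockout arrays, against 0.14, 0.03 and −0.02 on the wild-type arrays (log2 difference −0.66, SE 0.14, adjusted p = 0.00115). Bmp4, Tgfbi, Fst and Tgfb1 had no overlap between groups.

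Among macrophage markers more were higher than lower, and among B cell markers the reverse held. Of 23 macrophage genes, 8 were higher and 1 lower, with a median of 0.71. Their share higher, 34.8%, is near the 30.7% of all genes in the same level group. Gpnmb, a lysosomal glycoprotein of macrophages, read −0.35, −0.3 and −0.17 on the knockout arrays, against −2.81, −1.81 and −2.34 on the wild-type arrays (log2 difference 2.05, SE 0.54, adjusted p = 0.00607). Lyve1, a hyaluronan receptor of resident perivascular macrophages and of lymphatic endothelium, rose by 0.73 (SE 0.15, adjusted p = 0.00101). Itgam, the integrin CD11b, fell by 1.17 on its brightest probe (SE 0.17, adjusted p = 2.96e-05), but its second probe differed by 0.45, so its direction depends on the probe. The lysosomal marker Cd68 differed by 0.72 and did not pass (adjusted p = 0.0762), but passed in the fit of the 6 control arrays alone (adjusted p = 0.0299). Without knockout array 1, 4 macrophage genes were higher, and a random slide block left 1, with a median of 0.24.

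Only 6 of 12 B cell genes were measured, of which 3 were lower and 0 higher (median −1.24). In the level group of these genes 29.9% of all genes were lower. Cd22, an inhibitory receptor of B cells, read −0.45, −0.67 and −0.49 on the knockout arrays, against 1.01, 0.86 and 1.13 on the wild-type arrays (log2 difference −1.54, SE 0.22, adjusted p = 3.68e-05). Cr2, the complement receptor CD21, read −2.92, −2.87 and −2.87 on the knockout arrays, against −1.57, −1.63 and −1.8 on the wild-type arrays (log2 difference −1.22, SE 0.16, adjusted p = 1.64e-05). Cd79a, of the B cell receptor, read −2.75, −3.46 and −4.61 on the knockout arrays, against −2.58, −2.72 and −1.76 on the wild-type arrays (log2 difference −1.25, SE 0.36, adjusted p = 0.011). The 3 wild-type arrays were above the 3 knockout arrays for each. Cd79a did not pass without knockout array 3 (log2 −0.75, adjusted p = 0.0816) or wild-type array 3 (log2 −0.96, adjusted p = 0.0728), nor on the authors' values (log2 −0.81, adjusted p = 0.0635). The second Cr2 probe did not pass either (log2 −0.43, adjusted p = 0.324). Of 17 T cell and thymocyte genes 1 was higher and 1 lower, and of 11 neutrophil genes 0 were higher and 1 lower.

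Of 22 endothelial genes 5 were higher (22.7%) and 2 lower (median 0.58). In the level group of this list 30.7% of all genes were higher and 9.55% lower. Mmrn1, a multimerin of endothelium and platelets, read −0.82, −0.96 and −0.37 on the knockout arrays, against −2.78, −1.7 and −2.87 on the wild-type arrays (log2 difference 1.74, SE 0.29, adjusted p = 0.000177). Pecam1, the junction protein CD31, rose by 0.97 (SE 0.28, adjusted p = 0.0111), and Tie1, an endothelial receptor kinase, by 1.18 (SE 0.36, adjusted p = 0.016). Both lost the call without wild-type array 3 (adjusted p = 0.0809 and 0.0708). Erg, an endothelial transcription factor, fell by 0.62 (SE 0.14, adjusted p = 0.00221), but its second probe did not pass (log2 −0.34, adjusted p = 0.229). Under a random slide block 1 endothelial gene was higher and 0 lower, and the median was 0.14. Of 19 white fat genes 6 were higher (31.6%) and 0 lower, among them Lpl, the lipoprotein lipase (1.06, adjusted p = 0.00214), and Scd1, a fatty acid desaturase (0.93, adjusted p = 0.00619). In the level group of this list 19.2% of all genes were higher. Of 2 tested marker genes of white fat 0 were called, and a random slide block left 0 of the 19 with a call. Of 14 mesothelial and epithelial genes 0 passed, though their median was 0.84. The list's median relative to the gene means was −1.32, 0.49 and −0.16 on the wild-type arrays, a spread wider than that median.

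In the main fit none of the IL-17 family and receptor genes that could be measured passed as lower in the knockout. Of 14 cytokine, receptor and Th17 genes in this list, 3 were higher and 0 lower (median 0.43). Under other scalings and filters 3 to 6 were higher and 0 to 2 lower. When 1 array was left out, 2 to 4 were higher and 0 to 1 lower. Il17d, a distant member of the family made by non-immune cells, read 1.66, 1.81 and 1.93 on the knockout arrays, against −0.2, 0.03 and 0.00 on the wild-type arrays (log2 difference 1.86, SE 0.2, adjusted p = 1.01e-06), and its second probe differed by 0.36. Il17rd, a receptor homologue that tempers fibroblast growth factor signals, read 0.67, 0.95 and 0.82 on the knockout arrays, against −0.16, −0.19 and −0.47 on the wild-type arrays (log2 difference 1.09, SE 0.17, adjusted p = 9.06e-05). Both passed with slide as a random block, at an adjusted p of 0.000134 and 0.00175. Il1r1, the receptor for interleukin 1 that favours Th17 cells, rose by 0.73 (SE 0.24, adjusted p = 0.0245), a call lost in 3 of the 6 fits that left out 1 array.

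Of 22 measured target genes of IL-17 signalling, 5 were higher and 0 lower in the knockout, which is close to the 17.1% higher over all genes. The median of the list was 0.36 and lay between 0.00 and 0.40 under other scalings and filters. Mmp3, the metalloproteinase stromelysin 1, read 4.41, 4.16 and 4.19 on the knockout arrays, against 3.0, 3.19 and 2.65 on the wild-type arrays (log2 difference 1.31, SE 0.22, adjusted p = 0.000155). Steap4, a metal reductase, read −2.36, −1.07 and −1.19 on the knockout arrays, against −2.88, −2.9 and −2.96 on the wild-type arrays (log2 difference 1.38, SE 0.31, adjusted p = 0.00188). The other 3, Tnfaip3, Lbp and Icam1, differed by 0.65 to 0.69. Icam1 did not pass in 4 of the 6 fits that left out 1 array (log2 0.35, adjusted p = 0.288 without wild-type array 3), Lbp in 3 (log2 0.32, adjusted p = 0.301 without wild-type array 1) and Tnfaip3 in 4. The chemokine Cxcl1, a textbook target, read −2.38, −3.09 and −2.69 on the knockout arrays, against −1.98, −1.6 and −2.15 on the wild-type arrays, and did not pass (adjusted p = 0.433), though its groups did not overlap and it was lower in the fit of the 6 control arrays alone (log2 −0.81, adjusted p = 0.03). When slide was a random block 0 of the 22 passed and the median was 0.09, and without knockout array 1 there were 2.

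Of 24 inflammatory cytokines and chemokines 1 was higher and 2 lower, and of 28 interferon response genes 1 was higher and 0 lower, both below the background shares. Lif, a cytokine of the interleukin 6 family, differed by −2.06 (adjusted p = 0.00013), and Cxcl16, a scavenger receptor and chemokine, by 0.67 (adjusted p = 0.0339), a call lost in 4 of the 6 fits that left out 1 array. Among 13 renin-angiotensin and mineralocorticoid genes 4 were higher and 1 lower. Agtr1a, the main vascular receptor for angiotensin II, read −0.84, −0.71 and −0.81 on the knockout arrays, against −1.68, −1.45 and −1.44 on the wild-type arrays (log2 difference 0.74, SE 0.25, adjusted p = 0.0261). It did not pass in 5 of the 6 fits that left out 1 array (adjusted p up to 0.0875) or with slide as a random block (adjusted p = 0.445). Hsd11b1, which regenerates active glucocorticoid, rose by 1.34 (SE 0.28, adjusted p = 0.00124). Of 16 osmotic and sodium transport genes 5 were higher (31.2%) and 0 lower, near the 30.7% of all genes higher in their level group.

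Among protein folding and respiration genes more were higher than lower, as in their level group, where 22.7% of all genes were higher and 10.3% lower. With slide as a random block 1 unfolded protein response gene, 1 heat shock gene and 0 respiration genes passed. Of 23 unfolded protein response genes 7 were higher and 0 lower (median 0.40). Manf, a secreted protein of the stressed endoplasmic reticulum, read 3.75, 3.51 and 3.73 on the knockout arrays, against 2.55, 2.83 and 2.24 on the wild-type arrays (log2 difference 1.12, SE 0.28, adjusted p = 0.00449). Dnajc3, an inhibitor of the kinase PERK, rose by 0.78 (SE 0.13, adjusted p = 0.000139). Of 14 heat shock genes 5 were higher and 0 lower (median 0.55), but 1 was higher without knockout array 1. Chordc1, a partner of the chaperone HSP90, rose by 1.04 (SE 0.19, adjusted p = 0.000377). Of 30 oxidative phosphorylation genes 9 were higher and 1 lower (median 0.28), and 4 were higher without wild-type array 1. The 9 included Ndufs1, a core subunit of complex I (0.61, adjusted p = 0.00525). Of 30 ribosomal protein genes 0 passed, with a median of 0.05. The groups did not overlap for 5 of those 30, where 60.6% of all genes did not overlap.

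Genes that mark position along the body differed in a few members. Of 27 Hox and related genes 4 were higher and 2 lower (median 0.17). Hoxb8, a Hox gene of the trunk, read 1.45, −1.23 and −1.06 on the knockout arrays, against −3.64, −3.47 and −3.47 on the wild-type arrays (log2 difference 3.24, SE 0.53, adjusted p = 0.000115). Its knockout array 1 stood well above the other 2 knockout arrays. Hoxd4 rose by 1.29 (SE 0.19, adjusted p = 5.02e-05). Tbx3, a T-box repressor, read −2.56, −1.9 and −1.58 on the knockout arrays, against −0.4, −0.37 and −0.34 on the wild-type arrays (log2 difference −1.64, SE 0.23, adjusted p = 2.85e-05), and Hoxa4, an anterior gene of the Hoxa cluster, fell by 0.79 (SE 0.19, adjusted p = 0.0028), but did not pass on the authors' values (log2 −0.52, adjusted p = 0.0513).

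Genes around the Il17a locus were examined because a gene-targeted line can carry flanking sequence of the donor strain. Within 10 Mb of the Il17a probe on chromosome 1, 73 genes were tested, 9 were higher and 25 lower (46.6% called, against 38.4% over all genes). Of the 73, 44 had a RefSeq symbol, and of these 9 were higher and 12 lower. The part of signal level and of probes with only a database name in these counts was not tested. Crispld1, a secreted cysteine-rich protein, read −2.36, −2.25 and −1.88 on the knockout arrays, against −0.31, −0.3 and −0.74 on the wild-type arrays (log2 difference −1.71, SE 0.21, adjusted p = 4.83e-06; mm9 chromosome 1, 17755156 to 17755215). Stau2, an RNA-transport protein, read −0.34, −0.37 and −0.29 on the knockout arrays, against −0.96, −1.24 and −0.83 on the wild-type arrays (log2 difference 0.68, SE 0.1, adjusted p = 5.13e-05; mm9 chromosome 1, 16335787 to 16335846). The groups did not overlap for Crispld1 or Stau2. Mcm3, of the replication helicase and the nearest of these genes to the Il17a probe (0.0687 Mb), rose by 1.33 on its brightest probe (SE 0.25, adjusted p = 0.000419), but its second probe differed by −0.16.

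Of 10 measured genes listed as differing between C57BL/6 substrains or from other strains, 5 were higher and 1 lower. In the level group of this list 30.7% of all genes were higher and 9.55% lower. With slide as a random block 1 was higher and 1 lower, and without knockout array 1 there were 2 higher. The list was chosen with earlier results of these data known, so its counts are no test of strain. Raly, given above, and Stard3, a cholesterol-binding protein of late endosomes, were in this list. Stard3 read 1.84, 2.16 and 2.09 on the knockout arrays, against 2.79, 2.82 and 2.76 on the wild-type arrays (log2 difference −0.76, SE 0.11, adjusted p = 5.4e-05). Its genotype difference was −0.78 with NaCl, 0.02 with the infusion and 0.35 with both, whereas that of Raly was 4.53, 3.8 and 3.59. The vehicle and NaCl arrays of a genotype shared a slide, and the other groups lay partly or wholly on others.

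The genotype difference recurred under the other treatments. The contrast called 40.6% of genes with NaCl, 47.3% with the infusion and 29.2% with both, and 4597 genes were called the same way in all 4 settings (19.6%), 1633 higher (6.95%) and 2964 lower (12.6%). The 4 contrasts share no array, but they share slides. Tnxb differed by 4.65 with vehicle, 4.27 with NaCl, 4.12 with the infusion and 3.96 with both. Hebp1 differed by 3.88, 3.36, 3.4 and 3.43 in the same order. Arntl differed by 2.75, 4.59, 3.08 and 1.79, and Dbp by −2.62, −2.83, −2.86 and −1.11.

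**Figure D5:**
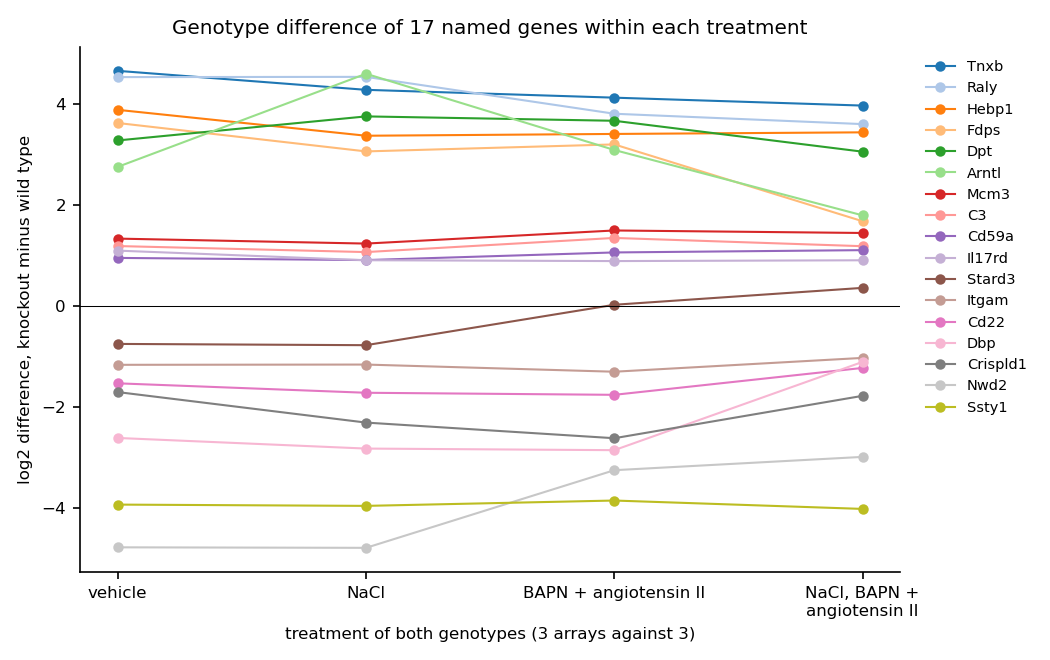
Log2 difference between knockout and wild type (vertical axis) for 17 named genes within each of 4 treatments (horizontal axis), each from 3 arrays against 3. Tnxb, Raly and Hebp1 stay above 3 in every treatment and Ssty1 near −4, while Stard3 lies at −0.76 with vehicle and at 0.35 with NaCl and the infusion.

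Whether salt changed the genotype difference was tested as the difference between the NaCl and vehicle contrasts. These 4 groups lay on 2 slides, 1 a genotype, so a slide effect that adds equally to every array of a slide is the same on both sides. Of 23503 genes 0 passed (limma, Benjamini-Hochberg), and 491 had an unadjusted p under 0.05 (2.09%). That share is below the 0.05 a test would give where no gene differs, so the test may be strict here. With 3 arrays a group, 0 calls do not show that salt left the genotype difference unchanged. Under the other scalings, filters and the slide block 0 passed as well, with 239 to 902 genes at an unadjusted p under 0.05. The smallest p of a gene with a RefSeq symbol was that of Hsd17b1, which makes oestradiol, at a log2 difference of −3.39 between the contrasts (SE 0.68, adjusted p = 1.0). Cdc7, a kinase that starts DNA replication, had a value of 1.26 (SE 0.35, adjusted p = 1.0).

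Genes with several probes show how far a call depends on the probe. Of 2651 called genes with a second kept probe, 1184 were called the same way by it (44.7%), 123 the opposite way (4.64%), and 2095 had the same sign (79.0%). Genes called lower kept their call at the second probe more often (50.7%) than genes called higher (38.8%), a description for which no test was run. C3, Serpinf1, Arpc3, Dbp and Bhlhe41 were among the genes whose second probe pointed the same way.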

How the data were processed

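RNA of 24 aorta samples was hybridised to 1-colour Agilent arrays. The authors deposited scanner files of spot intensity, which are background-subtracted processed signals from Feature Extraction 10.7.1.1 per the file headers, whereas the submitters' processing notes name version 9.5.1.1. The authors also deposited a table of processed intensity values, with no normalisation stated. Each of its columns had the same median, 30.982, and a rank correlation with its scanner file of at least 0.999967, so it was read as quantile-normalised linear values.

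From 59305 spots outside the controls per array, 2910 outlier spots over all arrays were left out and 0 were saturated. The deposited intensity was averaged over the spots of a probe. The log2 of that average, minus the 75th percentile of these log2 values on the array, was the signal used. A probe was kept where some group had it well above background on each of its 3 arrays (33377 of 55681), and the brightest probe stood for a gene. Names came from accessions matched to RefSeq for 27318 of the probes, and from the files otherwise. Of the 23503 genes, 38 had a missing value on an array. limma 3.58.1 in R 4.3.3 fitted a mean per group over all 24 arrays, with Benjamini-Hochberg adjustment over all genes and a threshold of 0.05. The fit was tested on simulated data with independent noise and no slide effect, so that test cannot speak to differences between slides.

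The 43 gene lists hold 912 entries, of which 813 were measured. The members and lists were chosen with earlier results of these data known. The rule for naming took the 12 largest changes of each sign, the 6 most stable over treatments, up to 4 genes a list, up to 6 near Il17a and 3 of each sign for salt. It gave 173 genes, of which the text gives those it describes; the rest are in the counts, and some are not reported here. The other 30 of the 112 genes tested and named (Bhlhe40, Bhlhe41, C2, Cd68, Ciart, Cnn1, Col15a1, Col1a1, Col3a1, Col8a2, Cxcl1, Dbp, Ddx3y, Eln, Fmod, Fst, Hlf, Hmgcs1, Lbp, Myh11, Npas2, Nr1d2, Pdgfra, Pecam1, Per3, Pln, Serping1, Tef, Tgfbi and Tie1) were chosen after their values were seen. Alternatives were the background correction, scaling, probe filter, probe choice, variance prior, arrays in the fit, slide as a random block, replicate number as a block and leaving out each array; the use of the second brightest probe was added after seeing the data.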

Additional observations from a re-analysis of the deposited data

How the results depend on the processing

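The 9024 genes that differed between knockout and wild-type vehicle aortas became 2045 with slide as a random block, and the 4597 called the same way in all 4 treatments became 1007. With normexp background correction the count over all 4 treatments was 7006. Leaving out 1 array gave between 6525 and 8547 called genes, fewest without wild-type array 3. Replicate numbers were not used to pair the samples in the main fit. The deviations of same-numbered arrays correlated at −0.11, −0.05 and −0.11. With 3 arrays a group these values cannot settle whether the samples were paired. With the replicate number as a block 7664 genes passed. Requiring a signal well above background on each of the 6 arrays left 6966 calls, 55.6% of them higher, against 44.6% in the full set. The cause of these shifts was not tested.

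Among named genes, the sign of at least 1 turned in each setting named next, and no turned value passed. With the second brightest probe, Itgam stood at 0.45, Loxl2 at −0.13, Mcm3 at −0.16, Srebf2 at −0.032 and Uty at 0.71. With slide as a random block Myh11 stood at 0.52. With normexp Cdc7 stood at −0.23 and Hsd17b1 at −0.065. Leaving out 1 array, Cdc7 ranged between −0.13 without wild-type array 1 and 0.35 without wild-type array 3, and was −0.05 without knockout array 1. With quantile normalisation Cnn1 stood at 0.0064, Ddx3y at −0.0069 and Uty at 0.12, and on the authors' values Cnn1 stood at 0.0058, Ddx3y at −0.0068 and Uty at 0.12. Uty stood at 0.13 with cyclic loess and at 0.18 with the mean of its probes. Of 112 named genes between 3 and 13 lost the call when 1 array was left out, most without wild-type array 3. These values cover the named genes only. That set was settled after the alternatives had been computed, and some genes left undescribed also turned sign. Dim genes are limited by background, and 3 arrays a group limit the rest.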
